A study of Mus musculus with 10 samples.

Results

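The untreated Wolffian duct cultures of this series are 3 arrays labelled as controls, out of 10 arrays in all. They were chosen by their labels alone, which place them in the vehicle group, and their mean log2 signal and its rank among 22206 probe sets make up the expression profile described here. The ducts came from 16.5 days post-coitum mouse embryos and were cultured at an air-liquid interface at 37 °C for 72 h. The vehicle cultures received culture medium, 4 further cultures received 0.5 µM SAG, a compound that switches on Smoothened and with it the hedgehog pathway, and 3 received 25 µM cyclopamine, a Smoothened inhibitor. The labels used here name no mouse strain, genotype or embryo sex, and they do not say whether solvent was added to the control medium. The series calls the replicates biological. The sample titles use the word pronephros while the protocols name the Wolffian duct, and the markers below bear on that label.

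The Wolffian duct is an epithelial tube that runs beside the mesonephros, the transient kidney of the embryo. In males it is kept under androgen action and becomes the epididymis, vas deferens and seminal vesicle. Its epithelium carries Pax2, Pax8 and the receptor Ret, and it is wrapped in mesenchyme, part of which becomes a smooth muscle coat. Ligands and matrix pass signals between both layers: hedgehog ligands made by an epithelium are received by Patched and Smoothened on mesenchymal cells, which answer through Gli factors.

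Signals ran from a mean of 3.03 to 18.7 on the log2 scale, with quartiles of 5.13, 7.66 and 10.8. Olfactory receptor genes, which a duct is not known to use, gave a level for each array: the 95th percentile of their 1091 probe sets was 6.17, 5.89 and 6.05 on vehicle replicates 1, 2 and 3. A probe set is called above the reference where it exceeded that level on all 3 arrays. By this rule 13431 probe sets (60.5%) were above it, and among 19505 named genes, each taken at 1 probe set, 12109 (62.1%) were. It is a description, not a test of expression: 34 olfactory receptor probe sets (3.12%) also met it. A rank between probe sets depends on how well each probe binds and is not per length of transcript, so ranks below order array signals, not numbers of RNA molecules.

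**Figure D1:**
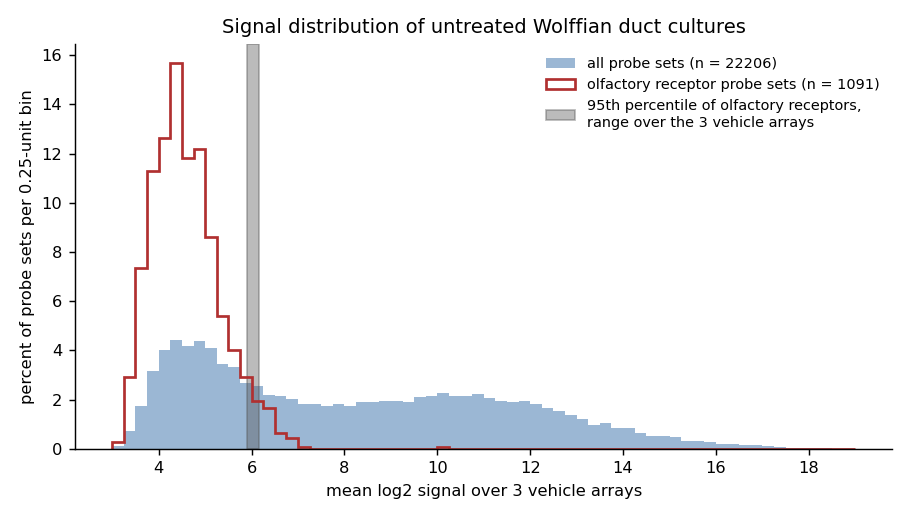
Share of probe sets, in percent per bin of 0.25 log2 units, against the mean log2 signal of the 3 vehicle arrays, for all 22206 probe sets (filled) and the 1091 olfactory receptor probe sets (outline). The grey band spans the 95th percentiles of the olfactory receptor probe sets on the 3 arrays, 5.89 to 6.17, and 60.5% of all probe sets were above it on every array.

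The brightest named transcript was Eef1a1, a translation elongation factor, at 18.33 ± 0.00 (SD, n = 3). After it came imprinted and growth genes of embryonic tissue. Mest, an imprinted gene of embryonic mesoderm, stood at 18.22, 17.84 and 18.02 on replicates 1 to 3. Igf2, the imprinted insulin-like growth factor, stood at 18.01, 17.76 and 18.11. The probe set named Mir675, a hairpin that lies inside the imprinted H19 transcript, had a mean of 17.81 ± 0.11. It cannot be told from these signals whether host transcript or mature miRNA was read. None of these genes had a range over 1 log2 unit between cultures. Matrix genes made up another group within the top 20 named genes: Sparc, a collagen-binding glycoprotein (17.75 ± 0.19), Dcn, the proteoglycan decorin (17.53 ± 0.13), and Mfap4, a glycoprotein of elastic microfibrils (17.43 ± 0.05). The others were Cd81, Serinc3, Dad1, Actb, Hsp90b1, Fth1, Hnrnpk, Ifitm2, Tubb5, Ywhae, Eef2, Pabpc1 and Tuba1b, genes of membranes, protein folding, iron storage, translation and the cytoskeleton, at 17.41 to 17.90. Of the 100 brightest probe sets, 26 had no gene name here and 15 were ribosomal protein genes.

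Sequences just before the transcription start are shown for some of these genes because CG dinucleotides and TATAAA letters differed in number along the profile. The 100 bases that end at the annotated start are shown from RefSeq promoter windows (build GRCm38.p6), 5′ to 3′ on the strand of the gene. Capitals mark CG dinucleotides and the letters TATAAA. Eef1a1 and Sparc were chosen from the top 20, Vim and Ppia as bright genes with TATAAA, Ptch1 as the brightest hedgehog receptor gene, and Alb as a liver gene under the reference, all after their values had been seen. They lie at chr9:78481725-78481824 (minus strand, Eef1a1), chr11:55420081-55420180 (minus, Sparc), chr2:13574211-13574310 (plus, Vim), chr11:6415767-6415866 (plus, Ppia), chr13:63565736-63565835 (minus, Ptch1) and chr5:90460770-90460869 (plus, Alb).
Eef1a1: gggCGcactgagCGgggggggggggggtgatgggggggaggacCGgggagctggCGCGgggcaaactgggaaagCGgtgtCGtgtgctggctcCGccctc
Ptch1: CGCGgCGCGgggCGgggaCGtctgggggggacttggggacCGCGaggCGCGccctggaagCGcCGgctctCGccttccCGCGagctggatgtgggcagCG
Vim: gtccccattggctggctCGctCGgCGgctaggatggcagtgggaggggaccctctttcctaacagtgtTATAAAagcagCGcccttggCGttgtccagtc
Ppia: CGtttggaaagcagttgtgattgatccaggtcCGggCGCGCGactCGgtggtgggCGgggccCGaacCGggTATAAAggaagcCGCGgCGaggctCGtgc
Sparc: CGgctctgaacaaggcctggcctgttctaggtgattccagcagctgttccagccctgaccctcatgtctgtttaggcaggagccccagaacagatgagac
Alb: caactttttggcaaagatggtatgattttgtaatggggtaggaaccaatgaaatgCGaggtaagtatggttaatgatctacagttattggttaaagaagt

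Ptch1 held 16 CG dinucleotides in the stretch shown and Ppia 13, while Sparc and Alb held 1 each. Over windows of 300 bases (250 before the start and 50 after), matched for 15690 of 19062 genes (82.3%), genes above the reference had a median of 20 CG dinucleotides (quartiles 13 and 28). Genes not above it had a median of 4 (quartiles 1 and 9), and olfactory receptor genes 1. By signal percentile the median was 3 from 0 to 20, 5 from 20 to 40, 17 from 40 to 60, 21 from 60 to 80, 23 from 80 to 99, and 21 in the top 1%. The main step therefore lay between the dim and the middle part of the profile, and it did not continue into the brightest genes.

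The letters TATAAA, searched 40 to 16 bases before the start, lay there in 1.99% of all 32851 windows, and their reverse complement TTTATA in 0.618%. By the same bins TATAAA was held by 5.52%, 5.37%, 2.31%, 1.03% and 1.26% of genes, and then by 8 of 135 genes in the top 1% (5.93%, 95% Wilson interval 3.03 to 11.3, counting error only). Those 8 were Emp3, Gstm1, H2ac22, H3c10, Ppia, Prdx1, Vim and Zfp36l1. In Vim the letters began 32 bases before the start and in Ppia 29. The match is one of letters, genes are not replicates, and no test was run on these shares. With 16.3% of matched genes having several annotated starts, the window need not be the start used in the duct.

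Marker lists of the tissues that an explant could hold were set against the reference next. Over all 50 lists, 525 of 787 measured genes (66.7%) were above it, beside 62.1% of all named genes, so lists are read singly. Bulk signals cannot tell fewer cells of a type from less RNA per cell.

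Duct epithelium was present by its markers: 20 of 20 measured genes were above the reference, with a median log2 signal of 11.36. Cdh1, the epithelial cadherin, was the brightest at 14.25, 14.79 and 14.05 on replicates 1 to 3. Pax8 stood at 11.91, 12.15 and 11.64 and Pax2 at 9.79, 10.68 and 9.53. Both paired-box factors of the nephric lineage were far over the reference in each culture, with replicate 2 highest. Ret, the receptor for GDNF, stood at 8.60, 9.13 and 7.04, so replicate 3 was lower than the other two by over 1 unit. Keratin Krt7 (13.18 ± 0.61), Epcam (12.98 ± 0.45), keratin Krt18 (12.90 ± 0.56) and claudin Cldn4 (12.79 ± 0.43) were the next brightest. Wnt9b, the ligand of the nephric duct epithelium, was the dimmest of the list at 6.94 ± 0.26.

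Mesenchyme markers were brighter than those of the epithelium on this array: 17 of 17 were above the reference, with a median of 14.29. Col3a1 (16.63 ± 0.09), Vim (16.49 ± 0.21), Osr2, a zinc finger factor of urogenital mesenchyme (16.37 ± 0.04), and Col1a2 (16.34 ± 0.14) followed Dcn. All 15 smooth muscle genes were above it too, with a median of 12.22. Acta2, smooth muscle actin, stood at 16.99, 17.12 and 17.02, nearly the same in each culture. Myl9, a myosin light chain (14.62 ± 0.24), Cald1, an actin-binding regulator (14.36 ± 0.31), Mylk, the kinase of the light chain (14.36 ± 0.13), and Tagln (14.26 ± 0.37) came next.

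Blood vessels and macrophages were present at lower signals. Of 13 endothelial genes 12 were above the reference, led by Eng (13.68 ± 0.08) and Emcn (12.81 ± 0.37). Pecam1, the endothelial adhesion molecule, stood at 10.51, 10.09 and 9.10, lowest on replicate 3. Of 13 macrophage genes 12 were above it, led by lysozyme Lyz2 (14.36 ± 0.42) and the mannose receptor Mrc1 (12.25 ± 0.72). Csf1r, the receptor for the macrophage growth factor, varied little, at 10.82, 11.10 and 10.88, and Ptprc, the antigen CD45 of all white blood cells, had a mean of 7.98 ± 0.21. Only 2 of 11 lymphocyte and mast cell genes were above the reference, the mast cell protease Cpa3 (6.74, 9.06 and 9.59) and Cd4 (8.21 ± 0.26). Of 8 red blood cell genes 1 was, Slc4a1 (6.98 ± 0.34), although the adult globin genes are not named here.

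Nerve genes were above the reference in 10 of 14 cases. Stmn2, a tubulin-binding protein of neurons, stood at 12.43, 12.38 and 11.93. Dbh, the enzyme that makes noradrenaline, stood at 12.15, 12.11 and 9.21, and Nefl, a neurofilament, at 11.47, 11.28 and 8.68. Replicate 3 was lower for all of these, by more than 2 units for Dbh and Nefl. Sox10, the factor of neural crest glia, had a mean of 5.64 ± 0.46 and was above the reference on 1 array, and S100b, Foxd3 and Elavl3 were not above it either. Mesothelium, the covering layer, was above it in 6 of 8 genes, led by Upk3b (12.97 ± 0.23). That list also holds Wt1 (10.03 ± 0.43), which mesenchyme can express.

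**Figure D2:**
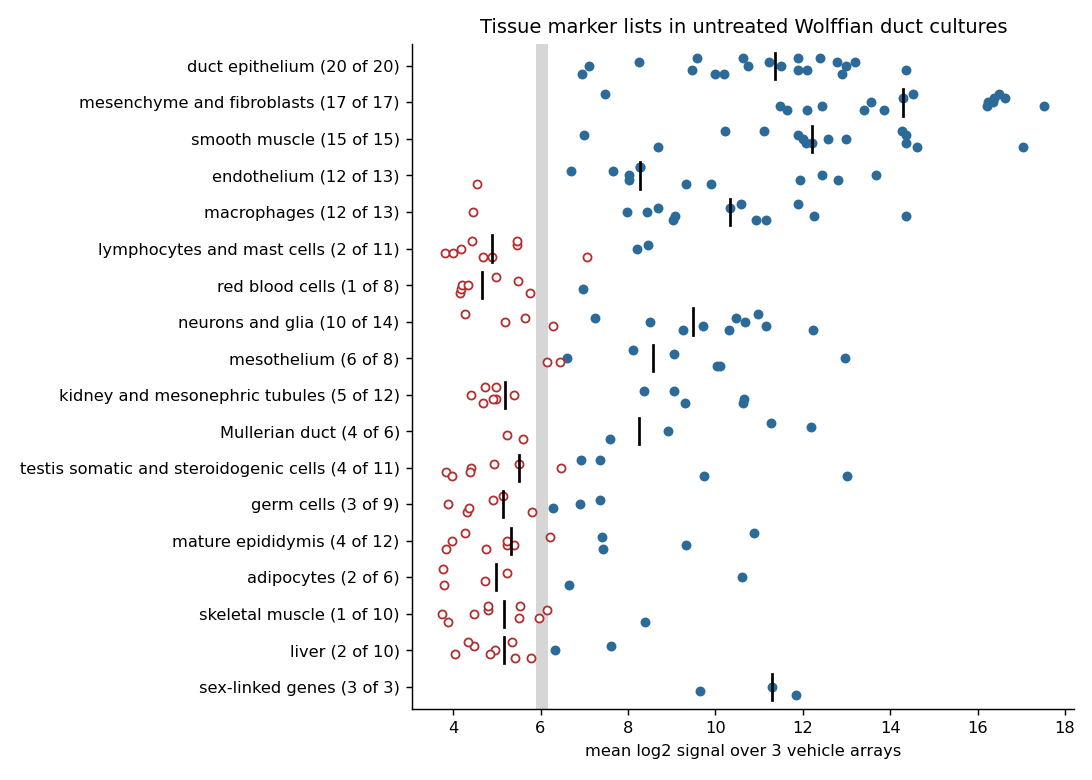
Mean log2 signal over the 3 vehicle arrays for each measured gene of 18 tissue marker lists. Filled points were above the olfactory receptor reference on all 3 arrays and open points were not, the numbers beside each name count filled points of all points, black lines are list medians and the grey band spans the reference on the 3 arrays. Duct epithelium (20 of 20), mesenchyme (17 of 17) and smooth muscle (15 of 15) lie wholly to the right of the band, and skeletal muscle (1 of 10), red blood cells (1 of 8) and liver (2 of 10) mostly to its left.

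Kidney and testis markers were above the reference in smaller shares, 41.7% and 36.4%, than the 62.1% of all named genes. For kidney and mesonephric tubules 5 of 12 genes were, among them the podocyte genes Podxl (10.66 ± 0.20) and Nphs1 (10.63 ± 0.17). Nphs1, which encodes nephrin of the kidney filter, stood at 10.83, 10.52 and 10.55. The tubule genes Aqp1 (10.09, 8.99 and 8.85) and Lrp2 and the progenitor gene Cited1 (9.15, 8.43 and 7.53) were above it too. The progenitor gene Six2 and the tubule genes Umod, Slc12a1 and Aqp2 were not above it. Of the testis list 4 of 11 were: Sox9 (13.51, 12.62 and 12.87), which many epithelia and cartilage also express, Inha (9.74 ± 0.24), the steroid enzyme gene Cyp11a1 (6.75, 6.54 and 8.78) and Gata4 (6.92 ± 0.34). Nr5a1, the master factor of steroid-making cells, was above it on replicate 3 alone, at 6.35 against 5.26 and 4.90. Amh, the Sertoli cell hormone, stood at 3.85 ± 0.02, and the germ cell helicase Ddx4 at 4.31 ± 0.14. Both were under the reference on all 3 arrays.

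Of 6 genes listed for the Müllerian duct, the female counterpart, 4 were above the reference, but these were Wnt5a, Dach1, Wnt4 and Dach2, which mesenchyme or nerve can express. Wnt7a, its epithelial ligand, and Amhr2, its receptor for anti-Müllerian hormone, were not. Genes listed for the mature epididymis were above it in 4 of 12 cases, led by Spink8, a protease inhibitor (10.51, 11.65 and 10.47). The others above it were Bin2, Ros1 and the lipocalin Lcn12, and which cells gave these signals was not tested. The luminal lipocalins Lcn5, Lcn8 and Lcn9 and the secreted peroxidase Gpx5 were not above it. Fabp4 (10.62 ± 0.67), a fatty acid carrier of fat cells and capillaries, and Pparg (6.66 ± 0.25) were the 2 of 6 adipocyte genes above it. Alb, serum albumin, stood at 5.79 ± 0.31. The Y-linked genes Eif2s3y (11.86 ± 0.14), Uty (11.29 ± 0.21) and Kdm5d (9.65 ± 0.27) were above the reference in every vehicle culture, and Xist is not named here.

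Transcription factors were above the reference in 118 of 198 listed cases (59.6%), close to the 62.1% of all named genes. Hox genes place a tissue along the body axis, with higher paralogue numbers used towards the tail. Of the groups 1 to 8, 16 of 18 were above the reference, and of the groups 9 to 13, 11 of 15. The brightest were Hoxc8 (14.20, 14.05 and 14.45), Hoxa10 (14.11 ± 0.09), Hoxc6 (13.76 on each array) and Hoxd11 (13.41, 13.63 and 13.50). All 4 differed by less than 0.5 units between cultures. Hoxb1 and Hoxd1 at the head end, and Hoxa13, Hoxb13, Hoxc12 and Hoxc13 at the tail end, were not above the reference. Hoxd12 (7.55 ± 0.41) and Hoxd13 (7.77 ± 0.47) were, so the Hoxd genes extended through group 13 where Hoxa, Hoxb and Hoxc did not.

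**Figure D3:**
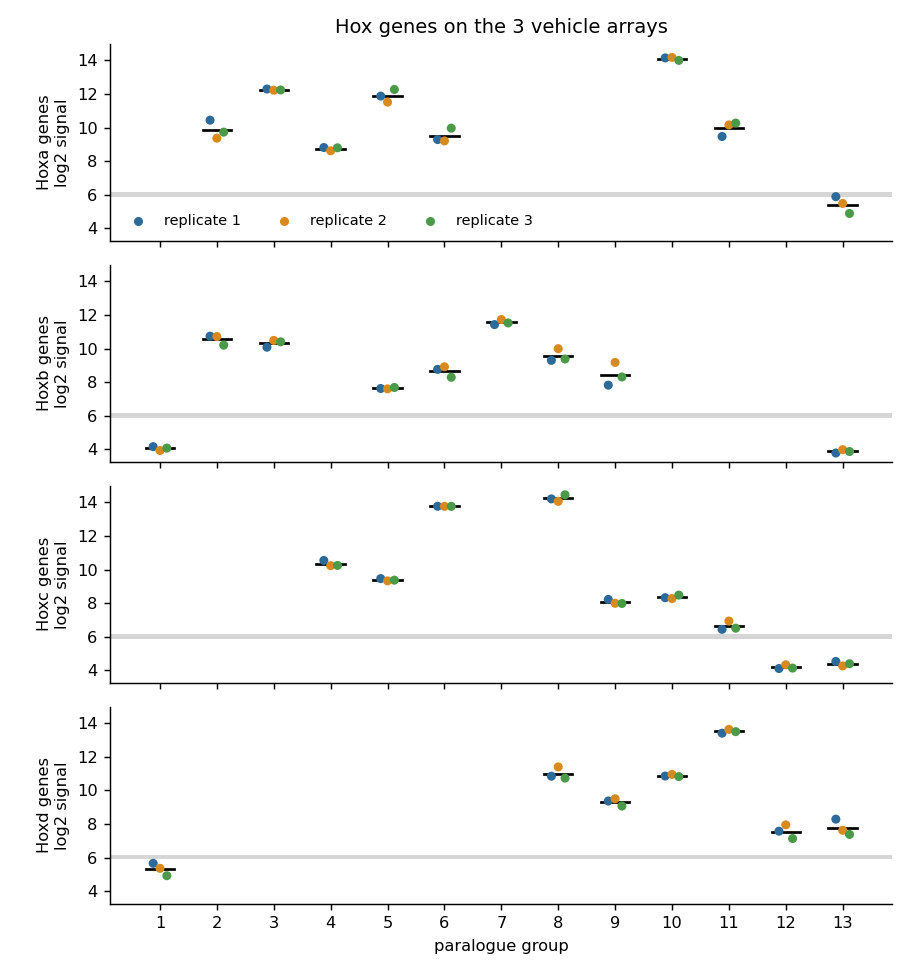
Log2 signal of each named Hox gene on vehicle replicates 1 to 3 (points) with its mean (black line), by cluster (panels) and paralogue group (axis); the grey line spans the olfactory receptor reference. Signal lies above the reference from group 2 to group 11 wherever a gene is named, and at group 13 for Hoxd13 alone.

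Nuclear receptors bind steroids, retinoids and thyroid hormone, or have no known ligand. Of these, 27 of 42 (64.3%) were above the reference, near the 62.1% of all named genes. Nr2f2, an orphan receptor of mesenchyme that keeps the duct from persisting in females, was the brightest at 16.89, 17.08 and 16.95. The retinoic acid receptor Rara (12.67 ± 0.04), the thyroid hormone receptor Thra (12.38 ± 0.20), and the orphan receptors Nr2c2 (11.65 ± 0.03) and Nr2f1 (11.15 ± 0.35) followed. Esr1, the estrogen receptor, stood at 9.41, 9.90 and 9.81 and Pgr, the progesterone receptor, at 8.73, 9.30 and 8.99. Both were above the reference in each culture, while Esr2 and Nr3c2 were not.

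Factors of mesenchyme were above the reference in 22 of 25 cases, with a median of 12.07. The nuclear factor I genes Nfia (16.43 ± 0.13), Nfix (16.34 ± 0.06) and Nfib (16.22 ± 0.09) stood beside Osr2, and Meis2, a Hox cofactor, at 15.13 ± 0.13. Among Sox genes 12 of 20 (60%) were above it, near the 62.1% of all named genes. Sox9, Sox12 (12.86 ± 0.20), Sox4 (12.86 ± 0.11) and Sox11 (11.77 ± 0.18) were the brightest of these. Forkhead genes were above it in 15 of 39 cases. The brightest of them, Foxp1 (13.68 ± 0.11), Foxk2 (13.28 ± 0.16) and Foxk1 (12.22 ± 0.07), are widely used in other tissues too. Foxf1, a hedgehog-responsive factor of gut mesenchyme, was above it on 2 of 3 arrays, at 6.54, 6.18 and 5.51. Of the list of Pax, Eya and Gata genes and their homeobox partners 12 of 23 were above it, led by Gata2 (14.78 ± 0.17). Of T-box genes 3 of 16 were, Mga, Tbx2 (13.15 ± 0.25) and Tbx3 (11.80 ± 0.20).

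Receptors were above the reference in 96 of 116 listed cases (82.8%). All 6 measured hedgehog receptors and co-receptors were. Ptch1, the receptor that holds Smoothened in check, stood at 14.49, 14.58 and 13.95, and its co-receptors Cdon (14.13 ± 0.17) and Boc (13.96 ± 0.10) were close to it. Gas1, a further co-receptor, had a mean of 12.08 ± 0.10. Hhip, a decoy receptor that the pathway itself induces, varied more, at 12.08, 12.67 and 11.09. Smo, the transducer, was the dimmest of them at 10.24 ± 0.17.

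The Gli factors downstream were all above the reference as well. Gli1, whose transcription depends on pathway activity, stood at 12.63, 11.67 and 11.43, highest on replicate 1. Gli3 (12.07 ± 0.17) and Gli2 (10.55 ± 0.17), which are made without the signal, varied less. Of the ligands, Shh was above the reference at 9.80, 10.27 and 9.23, and Ihh was only just above it, at 6.70, 6.59 and 6.54. With the reference set at the 99th percentile of the olfactory receptors Shh was the 1 ligand of 3 above it. Dhh stood at 4.41 ± 0.30, under the reference on all arrays. Shh, the 6 measured receptors and the 3 Gli factors were thus above the reference in cultures that had received no Smoothened compound.

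Receptor tyrosine kinases were above the reference in 46 of 55 cases. Ryk, a receptor for Wnt ligands, was the brightest (15.57 ± 0.15), then Pdgfrb, the receptor of mural and mesenchymal cells (13.87 ± 0.06), the collagen receptor Ddr2 (13.69 ± 0.41), the neurotrophin receptor Ntrk2 (13.65 ± 0.52) and the insulin receptor Insr (13.63 ± 0.15). The GDNF co-receptor Gfra1, which acts with Ret, stood at 10.63, 10.19 and 9.65, and Gfra2, the co-receptor for neurturin, at 13.68, 13.64 and 13.25. Gdnf itself was at 5.33, 5.30 and 5.33, under the reference on every array. The receptor pair was therefore above the reference and this ligand was not.

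For Wnt signalling 16 of 17 receptors were above the reference, led by Fzd2 (14.87 ± 0.02), the co-receptor Lrp6 (13.92 ± 0.04) and the R-spondin receptor Lgr4 (12.76 ± 0.42). Among TGF-beta family receptors 11 of 14 were, led by Bmpr2 (14.39 ± 0.06). Of Notch receptors 3 of 4 were, Notch2 (11.44 ± 0.15), Notch3 (8.81 ± 0.15) and Notch1 (7.83 ± 0.32). Receptors of contraction and relaxation were above it in 12 of 17 cases. Agtr2, the type 2 receptor of angiotensin, was bright and even between cultures, at 15.63, 15.65 and 15.75, and Ednrb, an endothelin receptor, had a mean of 12.77 ± 0.15.

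Ligands were above the reference in 90 of 151 cases (59.6%), near the share of all named genes. Of Wnt ligands 8 of 19 were, led by Wnt5a (11.95, 12.14 and 12.48), a ligand of mesenchyme, and Wnt2b (10.07 ± 0.33). Secreted Wnt modulators reached higher signals: the antagonist Sfrp1 stood at 15.92, 15.56 and 15.88, and the agonist Rspo3 at 15.18, 15.21 and 15.64. Sfrp2 (14.39 ± 0.56) and Rspo1 (12.32 ± 0.18) followed, and 12 of 17 such genes were above the reference. Of FGF ligands 9 of 21 were, all at or under the 10.61 ± 0.19 of Fgf2. Fgf10, the mesenchymal ligand of epithelial Fgfr2, stood at 9.12, 8.95 and 9.36.

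TGF-beta family ligands were above the reference in 16 of 32 cases. Tgfb2 (13.71 ± 0.27), Bmp4 (13.74, 14.06 and 13.29), the activin subunit gene Inhba, which duct coiling is known to need (13.33, 13.28 and 13.58), and Tgfb1 (13.21 ± 0.20) were nearly level. Bmp7 stood lower, at 9.81 ± 0.20. Their antagonists were above it in 9 of 12 cases, led by Twsg1 (13.77 ± 0.07) and Fstl1 (13.63 ± 0.19). Of 7 Notch ligands 4 were, led by the imprinted non-canonical ligand Dlk1 (17.11 ± 0.17). Dll4, a ligand of vessels, was lowest on replicate 3, at 11.76, 11.50 and 9.91, the same array that was lowest for Pecam1.

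Growth factors of the GDNF, PDGF, VEGF, IGF and HGF families were above the reference in 20 of 23 cases. Igf1 stood at 17.11, 16.73 and 16.64, next to Igf2 among the brightest genes. All 7 IGF-binding proteins were above it too, led by Igfbp2 (17.13, 17.22 and 17.15) and Igfbp7 (16.69 ± 0.23). Gas6, the ligand of TAM receptors (14.43 ± 0.25), Vegfa, the vessel growth factor (13.69 ± 0.53), and Pdgfc (13.63 ± 0.07) followed. EGF family ligands were above it in 3 of 10 cases, Nrg1 (10.26 ± 0.19), Btc (7.99 ± 0.33) and Nrg2 (7.57 ± 0.02).

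Matrix genes were above the reference in 120 of 150 cases (80%), with a median signal of 10.45 beside 7.91 for all named genes. Of collagens 35 of 42 were. The fibril collagens Col3a1 (16.52, 16.69 and 16.68), Col1a2 and Col1a1 (16.21 ± 0.13) were brightest, then the beaded filament collagens Col6a2 (14.91 ± 0.12) and Col6a1 (14.77 ± 0.12). Interstitial glycoproteins were above it in 24 of 26 cases and had a median of 13.21, the highest of the matrix lists. Mfap2 (16.96 ± 0.07), a microfibril protein, Sparcl1 (16.46 ± 0.04) and the fibulin Fbln1 (15.95 ± 0.14) stood with Sparc and Mfap4.

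Of proteoglycans 20 of 24 were above the reference. After Dcn came the small leucine-rich proteoglycans Lum (16.23 ± 0.05), Bgn (16.09 ± 0.07) and Ogn (15.96 ± 0.08), and the cell surface glypican Gpc3 (15.60, 15.57 and 15.48). Basement membrane genes were above it in 12 of 14 cases. Nidogen Nid1 (14.38 ± 0.06), laminin beta chain Lamb1 (13.84 ± 0.01) and Agrn (13.69 ± 0.20) led, followed by the alpha chains Lama2 and Lama4, which mesenchyme and vessels make. The epithelial alpha chain Lama5 stood at 6.72, 6.90 and 6.05 and missed the reference on replicate 3 by less than 0.01. Integrins were above it in 18 of 24 cases, led by the shared beta chain Itgb1 (15.65 ± 0.12). Of proteases and their inhibitors 11 of 20 were, led by Timp2 (15.34 ± 0.04), Mmp2 (15.07 ± 0.33) and Mmp14 (14.85 ± 0.14).

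Enzymes and carriers of steroids and retinoids were above the reference in 11 of 18 cases (61.1%), near the 62.1% of all named genes. Aldh1a1 (14.84, 15.40 and 14.72) and Aldh1a2 (14.11, 14.47 and 14.47), which make retinoic acid, were the brightest. The Cyp26 genes Cyp26a1, Cyp26b1 and Cyp26c1, which break retinoic acid down, were not above it. Hsd11b2, which inactivates glucocorticoids, stood at 11.67, 10.62 and 10.78.

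**Figure D4:**
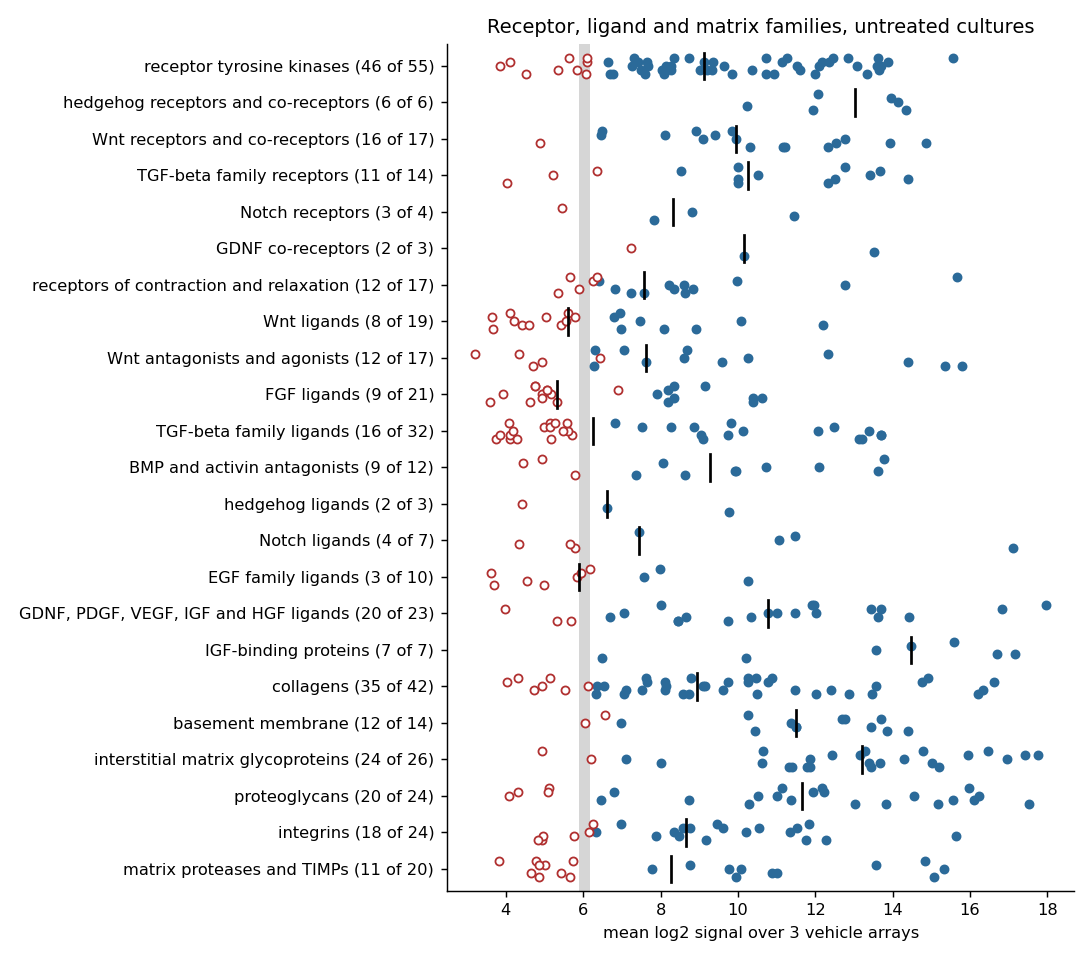
Mean log2 signal over the 3 vehicle arrays for each measured gene of the receptor, ligand and matrix lists. Filled points were above the olfactory receptor reference on all 3 arrays, open points were not, black lines are list medians and the grey band spans the reference. All hedgehog receptors (6 of 6) and IGF-binding proteins (7 of 7) lie to its right, while FGF ligands (9 of 21) and EGF family ligands (3 of 10) fall on both sides.

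The list members nearest the reference show how fine its edge is. Foxb2, Sox7, Col22a1, Sox30 and Dazl were the closest above it, and Lama5, Sfrp4, Spink11, Flt4 and Nrg4 the closest under it. Each was within 0.06 units of it on the array that decided.

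The vehicle cultures were alike over most of the profile. Pearson correlations across probe sets were 0.993, 0.992 and 0.991 between pairs of arrays, as a description over genes that share each array. The median SD of a probe set was 0.191, and 132 probe sets (0.594%) had a range over 2 log2 units. Leaving out vehicle replicate 3 cut that count to 31, leaving out replicate 2 to 78 and leaving out replicate 1 to 93. Replicate 3 was the highest array for 58 of the 132 probe sets and the lowest for 53.

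The named genes of largest range fell into few kinds. Chemokines and acute phase genes were high on replicate 3: Ccl2, which draws monocytes, stood at 7.75, 6.26 and 11.59, Ccl12 at 7.64, 7.48 and 11.85, and the acute phase gene Saa3 at 7.30, 6.09 and 11.18. Genes of urothelium were high on replicate 2 and low on replicate 3 or 1: Psca stood at 10.17, 11.97 and 7.31, the uroplakin Upk2 at 5.34, 9.55 and 5.69, and keratin Krt4 ranged over 3.93 units, from replicate 2 down to replicate 3. Lyve1, a receptor of lymphatic vessels and some macrophages, stood at 9.42, 7.33 and 11.38. Ctse, Car6 and Derl3 complete the 10 genes, with ranges of 4.63, 4.33 and 4.27.

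**Figure D5:**
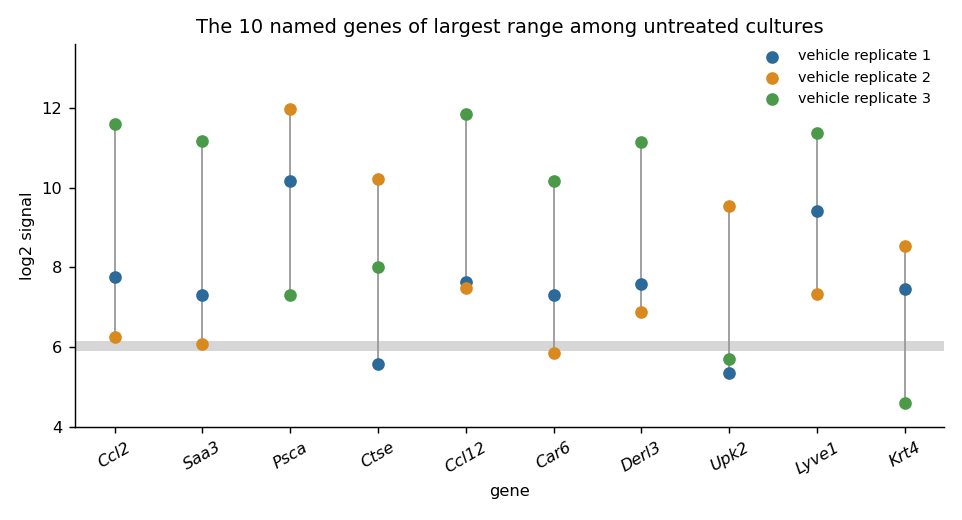
Log2 signal of the 10 named genes of largest range on vehicle replicates 1, 2 and 3 (points, joined by a line per gene), with the olfactory receptor reference as a grey band. Ccl2, Saa3, Ccl12, Car6, Derl3 and Lyve1 are highest on replicate 3, and Psca, Ctse, Upk2 and Krt4 on replicate 2.

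Lists for these kinds, written after the values had been seen, are given as a description. The mean of 10 urothelial genes was 7.10, 8.50 and 6.03 on replicates 1 to 3, and 4 of them were above the reference. The mean of 11 chemokine and acute phase genes was 8.17, 7.60 and 10.03, with 8 above it. Among the other lists the nerve list spread most, with means of 9.26, 9.22 and 7.65, then the 3 GDNF co-receptors (10.70, 10.70 and 9.52), endothelium (9.76, 9.51 and 8.78) and duct epithelium (10.90, 11.50 and 10.62). The mean of 42 collagens differed least, at 9.45, 9.46 and 9.44. Single collagens varied more than their mean: the median SD of a member was 0.220, and Col6a4 stood at 8.57, 10.43 and 9.87. Mesenchyme was also even, at 14.12, 14.16 and 14.17. Collagen and mesenchyme means were therefore nearly level over the 3 cultures, and nerve, urothelial and inflammatory means were not.

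How far the untreated profile sits from that of separate cultures under hedgehog activation or inhibition was tested next. Both comparisons use the same 3 vehicle arrays, so values for them are given side by side and no overlap is read from them. With limma over all probe sets, 162 (0.73%) differed between SAG and vehicle at an adjusted p under 0.05, 100 higher (0.45%) and 62 lower (0.279%) with SAG. Between cyclopamine and vehicle 1136 (5.12%) differed, 482 higher (2.17%) and 654 lower (2.95%) with cyclopamine. The SAG count fell to 45 without vehicle replicate 2, 69 without replicate 1 and 77 without replicate 3, and the cyclopamine count to 580, 485 and 625. The SAG count also moved to 93, 71 and 78 without SAG replicates 2, 3 and 4 and to 339 without cyclopamine replicate 2, and the cyclopamine count to 698 and 679 without cyclopamine replicates 1 and 3. Centring arrays on their medians, which moves the median change with SAG to 0.10, left 72.4% of SAG calls higher, beside 61.7%.

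Few probe sets moved across the reference on every array with treatment. The 1283 probe sets above it on only 1 or 2 vehicle arrays are outside these counts, and so are moves on only some treated arrays. Under SAG 15 probe sets (0.0675%) went from below it on all vehicle arrays to above it on all SAG arrays, and 17 (0.0766%) went the other way. Of these, 6 (0.027%) and 4 (0.018%) also passed limma. Under cyclopamine the counts were 55 (0.248%) and 34 (0.153%), with 21 (0.0946%) and 23 (0.104%) passing. Fgf5, an FGF ligand, was among those gained with SAG: it stood at 4.66, 4.62 and 4.97 in vehicle and at 7.23, 8.08, 7.08 and 7.94 with SAG (2.83 ± 0.26, SE; limma adjusted p = 0.00172). Gli1 and Artn, a ligand of the GDNF family, were among those lost with cyclopamine.

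Named next are the 13 listed genes that passed in each comparison; that rule used both comparisons, which share their vehicle arrays, so the number is no result. For 5 of these genes leaving out any 1 array ended neither call. Hhip rose by 4.55 ± 0.33 with SAG and fell by 5.95 with cyclopamine (limma adjusted p = 0.000275 and 1.15e-05). It stood at 16.01, 16.81, 16.54 and 16.60 with SAG and 6.21, 6.12 and 5.66 with cyclopamine, on either side of the vehicle arrays and without overlap. Ptch1 rose by 1.56 ± 0.22 and fell by 4.12 (limma adjusted p = 0.0120 and 9.85e-06). Gpc3, the glypican that binds hedgehog ligands, rose by 1.22 ± 0.16 to 16.47, 17.00, 16.69 and 16.91 and fell by 1.22 to 14.40, 14.06 and 14.52 (limma adjusted p = 0.00841 and 0.00383). Timp3, a metalloprotease inhibitor, rose by 1.46 ± 0.21 and fell by 1.46 (limma adjusted p = 0.0120 and 0.00505), and Dkk3, a secreted protein of the Dickkopf family, rose by 1.19 ± 0.14 and fell by 1.01 (limma adjusted p = 0.00476 for both).

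For the other 8 the call hung on single arrays in at least 1 comparison. Tgfb3, a TGF-beta ligand, rose by 1.01 ± 0.14 with SAG, a call lost without vehicle replicate 2 or 3 (limma adjusted p up to 0.0769), and fell by 1.13 with cyclopamine. Crabp1, a retinoic acid carrier, fell by 2.76 with SAG (limma adjusted p = 5.86e-05) and rose by 0.84 ± 0.17 with cyclopamine, a call lost when vehicle replicate 1, vehicle replicate 2 or cyclopamine replicate 3 was left out (up to 0.0677). Artn, Gli1, Foxf1, Hoxb6, Esrp1, an epithelial splicing factor, and Omd, a small proteoglycan, lost the SAG call without 7 or 8 of the 10 arrays (limma adjusted p up to 0.209). Vehicle replicate 2 was among those arrays for all but Omd, and SAG replicate 3 for all 6. Gli1 (fell by 6.93), Artn (fell by 2.53) and Hoxb6 (1.39 ± 0.24 higher) kept the cyclopamine call with any 1 array left out. The cyclopamine calls of Foxf1, Esrp1 and Omd were lost without vehicle replicate 1 or 2, vehicle replicate 1 or 3, and vehicle replicate 2 or 3 (limma adjusted p up to 0.0676, 0.154 and 0.130), and those of Esrp1 and Omd also when cyclopamine replicate 1, cyclopamine replicate 3 or single SAG arrays were left out.

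By list, 11 of the 15 smooth muscle genes of the untreated profile fell with cyclopamine, beside 2.95% of all probe sets, and 10 to 13 fell with 1 array left out. Cnn1, calponin, fell by 5.04, from 11.55, 12.02 and 12.09 to 6.68, 7.18 and 6.67 (limma adjusted p = 1.56e-06), and Myl9 fell by 2.99 (limma adjusted p = 9.26e-06). Their groups did not overlap. Of 17 mesenchyme genes 8 fell with cyclopamine, and 7 to 11 did with 1 array left out. The 1 that rose was Dpt, the matrix protein dermatopontin (1.73 ± 0.36 higher, limma adjusted p = 0.0221), named after its values were seen, and that call was lost when any vehicle array or cyclopamine replicate 3 was left out. Of 20 duct epithelium genes 10 rose, beside 2.17% of all probe sets. That count was 2 without vehicle replicate 1, 3 without vehicle replicate 3, 5 and 6 without SAG replicates 3 and 4, and 4 without cyclopamine replicate 1 or 3. Of 42 collagens 12 fell, and 6 did when any vehicle array or either of cyclopamine replicates 1 and 3 was left out.

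Some tissue lists moved alongside these genes. The mean over all 20 duct epithelium genes ran from 10.62 to 11.50 in vehicle, 9.74 to 10.30 with SAG and 11.66 to 12.25 with cyclopamine. The mesenchyme mean ran from 14.12 to 14.17, 14.25 to 14.37 and up to 13.35, and the smooth muscle mean from 12.06 to 12.51, 11.88 to 12.02 and 9.82 to 10.44. None of the 3 lists overlapped between vehicle and either treatment. They were not the only such lists: mature epididymis (6.10 to 6.22, 5.70 to 6.01 and 6.29 to 7.08) and hedgehog receptors did not overlap either. The same held for proteoglycans (11.17 to 11.25, 11.36 to 11.50 and 10.89 to 10.93) and mesenchymal transcription factors. It also held for TGF-beta family ligands and for the GDNF, PDGF, VEGF, IGF and HGF ligands. Lack of overlap was therefore not particular to the tissue lists. Endothelium, macrophage, nerve and mesothelium means overlapped between vehicle and both treatments. The part of tissue proportions in the changes of single genes was not tested.

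With SAG 0 of 15 smooth muscle, 0 of 17 mesenchyme, 0 of 42 nuclear receptor and 0 of 55 receptor tyrosine kinase genes passed limma, beside 0.73% of all probe sets. At an unadjusted p under 0.05 the counts were 6, 5, 8 and 11 in the same order, beside 10.8% of all probe sets. Other lists held SAG calls: 4 of 24 proteoglycans, 4 of 39 forkhead genes and 2 of 6 hedgehog receptors were higher, beside 0.45% of all probe sets. With 1 array left out these were 1 to 5, 1 to 4 and 2. Of 20 duct epithelium genes 2 were lower, beside 0.279%, and 0 to 6 with 1 array left out. Sostdc1, a secreted BMP and Wnt antagonist, rose by 2.86 ± 0.30 with SAG, from 7.80, 7.78 and 7.31 to 9.78, 10.89, 11.16 and 10.13 (limma adjusted p = 0.00298). It was at 6.90, 7.14 and 7.29 with cyclopamine, a difference that did not pass (adjusted p = 0.423). Among nuclear receptors 1 of 42 fell with cyclopamine, Nr4a3, an early response factor named after its values were seen (fell by 3.38, limma adjusted p = 0.00106), which is close to the 2.95% of all probe sets that were lower. A gene that was not called is not shown to be equal between the groups.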

How the data were processed

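Total RNA (100 ng, integrity number at least 7) was labelled and hybridised to Affymetrix arrays, per the labels' protocols. The deposited values are log2 signals, 22206 probe sets on 10 arrays. The log2 base was inferred from their range, and its summarization, normalization, software and genome build were not stated in the sources read for this work. Groups came from the labels. A platform annotation table named 19572 probe sets and left 2634 without a name here. A gene with several probe sets (55 genes) was taken at the one of highest mean over all arrays.

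The members and the 50 gene lists were chosen with earlier results of these data known, and 2 further lists and the sequences shown after their values were seen. Genes named were the 20 brightest and 10 most variable, up to 5 brightest per list, and defining genes; predicted and ribosomal genes were left out. For the comparisons they were list genes passing both and the 4 of smallest p in each. Others are examples chosen after their values were seen.

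Comparisons used limma 3.58.1 in R 4.3.3 on all 10 arrays (lmFit and eBayes, 7 residual degrees of freedom, two-sided, Benjamini-Hochberg over all probe sets, threshold 0.05), after a test on simulated data. Alternatives were another reference, fewer arrays, further normalization, centring, array weights, a replicate block and leaving out each array.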

Additional observations from a re-analysis of the deposited data

Results flagged for a closer look

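Among 17 genes named in the comparisons, 1 had an array far from the rest of a group of 4. Foxf1, the forkhead factor, stood at 7.11 on SAG replicate 3, while the other SAG arrays all stood at 7.29, so close together that a small gap was large beside the range (gap over range 0.977). The criterion picks out about 1 in 20 groups by chance.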

How the results depend on the processing

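The count of 13431 probe sets above the reference stayed within 1.5 times under every alternative run, from 12186 (reference at the 99th percentile) to 14021 (above on at least 2 of 3 arrays). Of the list counts 391 alternatives stayed within 1.5 times and 9 did not, in lists with 1 to 3 genes above the reference. With a range over 1 log2 unit the 132 variable probe sets became 1256, and with 1 vehicle array left out 31 to 93. The 162 SAG calls became 313 with array weights, 296 with only the 2 groups compared in the fit, and 45 to 339 with 1 array left out. The 1136 cyclopamine calls became 566 with only those groups, and 485 to 1471 with 1 array left out. With the replicate number as a block the counts were 32 and 653; same-numbered arrays share only a number, since their deviations correlated between -0.193 and 0.237. With that block Hhip kept its SAG call (limma adjusted p = 0.00572), while Dkk3 (0.0580), Timp3 (0.0692), Ptch1 (0.0785) and Gpc3 (0.0972) did not pass, and all 5 kept their cyclopamine calls. Over the 17 genes named in the comparisons, 461 alternatives left the limma outcome as it was, whether called or not called, and 83 lost a call. Direction was checked only where the main result was called, and 0 of those reversed. The causes were not tested. Dim signals compress differences, 3 arrays limit the precision of every mean, and 2634 probe sets have no name here.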

Other observations

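The chemokine and acute phase list, written after its values were seen, also holds Lcn2, a siderophore-binding lipocalin. It stood at 17.19, 17.13 and 16.95 on vehicle replicates 1 to 3, while Saa3 of the same list stood at 7.30, 6.09 and 11.18. Lcn2 was therefore even between cultures in which Saa3 was not. The brightest probe set of the profile had no gene name here and a mean of 18.7.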
